A study of Mus musculus with 10 samples.

Results

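The interferon response genes are 35 mouse genes that interferons are known to induce, picked by name with earlier results of these data known. They were divided into GTPase genes (10 genes), type I antiviral genes (18), transcription factors (4) and antigen processing genes (3). Of the 35 genes, 34 were found among the 41388 genes of the deposited tables by their Ensembl identifiers, and Gbp6 was not analysed here. All 34 passed the filters on low counts in every comparison made.

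Liver RNA was sequenced from 10 mice at the age of 10 weeks. Of these, 3 were F1 males born to a BFMI mother and sired by B6N (matBFMI), 3 were F1 males of the reciprocal cross with a BFMI father (patBFMI), and BFMI (BFMI860-12/Hber, an inbred obese line) and B6N (C57BL/6NCrl, a lean inbred strain) gave 1 male and 1 female each. F1 males received a high fat diet between day 21 and day 70. The sample records place the inbred animals on standard breeding chow while the study's methods name the high fat diet for all, so that diet and being an F1 hybrid may not be separable. No transgene or knockout was involved, and each library came from a single animal. Between 46988713 and 96023811 reads were assigned to genes per library. The matBFMI libraries were all run on lane 6 and the patBFMI libraries on lane 5, while the BFMI male was run on lane 1 and the other 3 inbred animals on lane 4, so lane and cross cannot be told apart. The number of genes with any count was 29942 to 34572 in the inbred libraries and 32421 in patBFMI 1, against 22095 to 26694 in the other 5 F1 libraries. For the F1 males, replicate numbers are the offspring numbers of the sample titles, which state no pairing.

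Interferons are secreted proteins, and those of type I are released by cells that sense viral or bacterial nucleic acid. Type I interferons signal through Jak1 and Tyk2 to a complex with Stat2 and Irf9 that binds the interferon-stimulated response element (ISRE), whereas the response to interferon gamma runs through the gamma-activated site (GAS). Hepatocytes, Kupffer cells and endothelial cells of the liver all carry the receptors and keep a basal level of these genes without infection.

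All 34 genes were transcribed in every library, although at very different levels. Levels are given as CPM, counts scaled to the TMM-corrected library size, and between genes as CPM per kilobase of exon. By length, Iigp1, an immunity-related GTPase (IRG), was the most abundant in matBFMI, patBFMI, BFMI and B6N, with group means of 57.9, 72.2, 79.1 and 81.6 CPM per kb, respectively. Bst2, which tethers budding virus to the cell surface, followed with 44.2, 47.7, 33.5 and 74.8 CPM per kb. Igtp and Irgm2, further IRG GTPases, had 13.8 and 10.6 CPM per kb over all 10 libraries. Ifi47, another IRG GTPase, came next with 7.95 CPM per kb, together with Stat2, a transcription factor of type I signalling, at 7.91 CPM per kb and Irgm1, an IRG regulator, at 7.33 CPM per kb. At the low end stood Mx1 (0.258 CPM per kb), Oasl2 (0.387 CPM per kb), Zbp1 (0.509 CPM per kb), Ifi44 (0.581 CPM per kb) and Xaf1 (0.722 CPM per kb), again as means over all libraries. Even Mx1, a dynamin-like GTPase against influenza virus, had 28 to 149 counts per library. The weakly transcribed genes were therefore measured on few reads, and Iigp1 on 17142 to 44315.

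**Figure D1:**
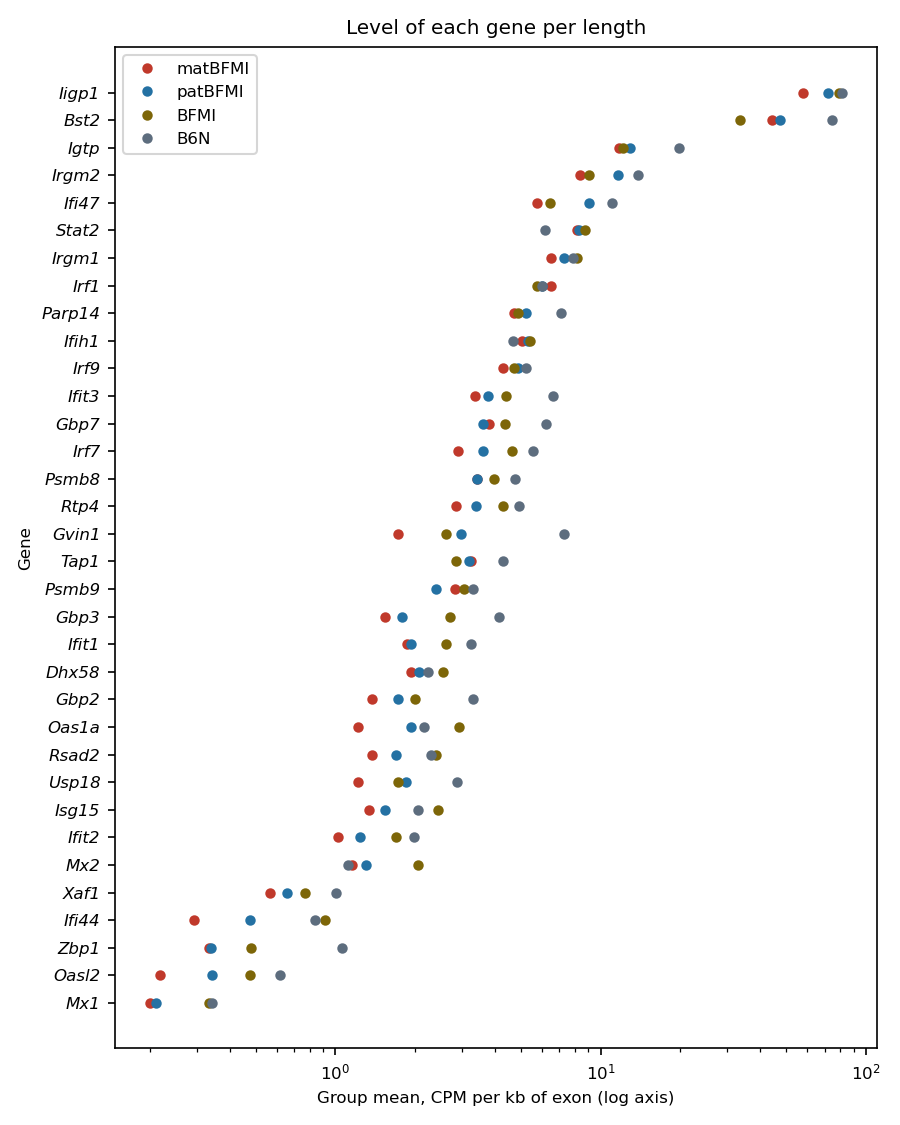
Group mean of each interferon response gene in CPM per kilobase of exon, on a log axis, with 1 point per group and genes ordered by their mean. Iigp1 (57.9 to 81.6 CPM per kb) and Bst2 (33.5 to 74.8 CPM per kb) lie far to the right of the other genes, and matBFMI (red) is often the leftmost point.

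RefSeq promoter windows (GRCm38.p6, 250 bases before to 50 bases after the start) were at hand for 25 of the 35 genes. They were searched on both strands for the ISRE core GAAANNGAAA and the GAS core TTCNNNGAA. The ISRE core was found for 14 of the 25 genes (56.0%), against 3.99% of 27025 genes in the same RefSeq table. It was found for 6 of 7 GTPase genes, 7 of 11 type I antiviral genes, 1 of 4 transcription factors and none of the 3 antigen processing genes. The GAS core was found for 8 of the 25 (32.0%), against 9.55% of all genes in the table, and for 3, 3, 1 and 1 genes of the 4 lists in the same order. The 6 stretches shown next run 5′ to 3′ along the gene, have 150 bases each and end just before the start site, except for Stat2, whose stretch ends 101 bases before it. Capitals mark the ISRE and GAS cores. Gbp2, Bst2 and Stat2 are shown because they differed between the strains and held a core. Ifi47 differed as well, but its window held neither core and is not shown. Igtp and Irgm2 are shown for their near-identical pair of motifs, and Isg15 for its run of overlapping ISRE cores.
Gbp2 (chr3:142620513-142620662, plus strand): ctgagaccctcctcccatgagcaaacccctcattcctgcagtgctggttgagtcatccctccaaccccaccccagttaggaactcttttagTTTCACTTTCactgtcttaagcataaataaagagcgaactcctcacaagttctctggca
Irgm2 (chr11:58214827-58214976, plus strand): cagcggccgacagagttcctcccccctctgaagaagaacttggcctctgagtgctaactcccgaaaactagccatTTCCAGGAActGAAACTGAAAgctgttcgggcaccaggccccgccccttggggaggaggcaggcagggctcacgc
Igtp (chr11:58199406-58199555, plus strand): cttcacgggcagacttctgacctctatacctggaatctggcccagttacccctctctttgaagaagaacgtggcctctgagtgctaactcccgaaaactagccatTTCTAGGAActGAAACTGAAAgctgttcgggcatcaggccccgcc
Bst2 (chr8:71537473-71537622, minus strand): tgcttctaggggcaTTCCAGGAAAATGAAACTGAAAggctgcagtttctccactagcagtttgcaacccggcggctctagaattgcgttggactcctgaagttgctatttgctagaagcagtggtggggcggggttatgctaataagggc
Stat2 (chr10:128270248-128270397, plus strand): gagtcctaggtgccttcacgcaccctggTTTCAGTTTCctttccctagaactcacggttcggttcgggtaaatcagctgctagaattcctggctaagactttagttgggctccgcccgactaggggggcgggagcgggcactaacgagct
Isg15 (chr4:156200819-156200968, minus strand): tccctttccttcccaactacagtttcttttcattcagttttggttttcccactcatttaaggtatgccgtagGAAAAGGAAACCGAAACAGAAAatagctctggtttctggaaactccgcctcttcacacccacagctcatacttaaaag
In Igtp and Irgm2 a GAS core stood 2 bases ahead of an ISRE core, and 103 of 120 bases (85.8%) were identical when both stretches were lined up on the ISRE. In Bst2 a GAS core overlapped the first of 2 ISRE cores, and in Isg15 the run held 3 overlapping ISRE cores. No ISRE or GAS core was in the windows of Ifi47, Ifi44, Oasl2, Xaf1, Irf7, Irf9, Tap1 and Psmb9. These are matches of letters and not measured binding sites.

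The reciprocal F1 males were compared to see whether the direction of cross, which leaves the autosomal genotype the same, altered the interferon response. None of the 34 genes passed the threshold of adjusted p 0.05 in the quasi-likelihood test of edgeR, where 0.0953% of the 16797 genes tested were called higher and 0.0476% lower in matBFMI. The log2 fold change of matBFMI over patBFMI was nevertheless negative for 30 of the 34 genes, with a median of -0.19, against -0.01 over all genes tested. At an unadjusted p under 0.05, 9 genes were lower and 0 higher in matBFMI, whereas 4.7% of all genes were lower at that level. Every matBFMI library lay below every patBFMI library for 5 of the 34, against 7.07% of all genes. DESeq2 called 3 of them lower (Ifi47, Gvin1 and Usp18), with 0.769% of all genes called lower and 305 genes called in either direction, against 24 in edgeR.

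The GTPase genes had the lower median of the 2 large lists, -0.33, and 8 of 9 were negative. Gvin1, a very large interferon-inducible GTPase, was at 17.9, 12.2 and 16.5 CPM in matBFMI and at 31.5, 24.9 and 23.9 CPM in patBFMI. The groups did not overlap, and the log2 fold change was -0.80 (SE 0.163, edgeR adjusted p = 0.135). Gm4070, which is identical to Gvin1 over 9005 bases of transcript, had a log2 fold change of -0.71 (edgeR adjusted p = 0.184), so reads of the 2 loci cannot be assigned to either with confidence. Summed over Gvin1 and its near copies, the mean was 41.2 CPM in matBFMI and 66.2 CPM in patBFMI. Ifi47, an IRG GTPase of the gamma response, was at 14.8, 12.2 and 15.7 CPM in matBFMI and at 23.3, 25.4 and 18.6 CPM in patBFMI. These libraries did not overlap either, with a log2 fold change of -0.67 (SE 0.137, edgeR adjusted p = 0.135).

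Iigp1, the most abundant of the genes, was at 374, 314 and 324 CPM in matBFMI and at 364, 459 and 439 CPM in patBFMI. Its groups overlapped through matBFMI 1 and patBFMI 1, and its log2 fold change of -0.33 (SE 0.118) had an adjusted p of 0.406 in edgeR. Irgm2 (-0.49) and Gbp2 (-0.33), a guanylate-binding protein that acts on pathogen vacuoles, also had an unadjusted p under 0.05. Igtp varied more within patBFMI (17.2, 43.2 and 18.2 CPM) than between the crosses. Gbp7, with a log2 fold change of 0.07, was the only GTPase gene of the list with a positive value.

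All 18 type I antiviral genes had a negative log2 fold change, from -0.72 to -0.04 with a median of -0.20. Usp18, the protease that removes Isg15 from proteins and damps receptor signalling, was at 3.89, 2.90 and 3.39 CPM in matBFMI and at 5.25, 4.85 and 5.33 CPM in patBFMI. The 2 groups stood apart, and its log2 fold change was -0.62 (SE 0.139, edgeR adjusted p = 0.172). Oas1a, which makes the 2′-5′ oligoadenylates that activate RNase L, was at 2.90, 1.72 and 2.29 CPM in matBFMI and at 3.31, 3.69 and 3.86 CPM in patBFMI. Its log2 fold change was -0.67 (SE 0.193, edgeR adjusted p = 0.294), and it shares 97.6% of 1861 aligned bases with Oas1g. Ifi44, an inducible protein that restricts viral replication, was at 2.41, 1.30 and 1.66 CPM in matBFMI and at 2.62, 3.05 and 3.08 CPM in patBFMI. Its libraries were separate as well, with a log2 fold change of -0.72 (SE 0.224, edgeR adjusted p = 0.329). Oasl2 reached an unadjusted p under 0.05 with a log2 fold change of -0.68, and its groups overlapped.

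Isg15, a ubiquitin-like modifier, was at 1.18, 0.764 and 1.10 CPM in matBFMI and at 0.826, 1.32 and 1.33 CPM in patBFMI, with a log2 fold change of -0.21. Ifit1, which binds viral RNA, had -0.07, Mx1 -0.10 and the RNA sensor Ifih1 -0.10. Rsad2, which encodes viperin, had -0.30. The other type I genes, among them the RNA sensor Dhx58 and the PARP family gene Parp14, had log2 fold changes between -0.29 and -0.04.

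Of the transcription factors, Irf7, the amplifier of type I interferon production, was at 12.5, 7.78 and 12.5 CPM in matBFMI and at 14.4, 14.0 and 12.5 CPM in patBFMI. Only matBFMI 2 stood away from the rest, and the log2 fold change was -0.33 (SE 0.173, edgeR adjusted p = 0.578). Irf9, the DNA-binding subunit of the type I complex, had a log2 fold change of -0.20 (SE 0.0977, edgeR adjusted p = 0.554) and Irf1 0.10 (SE 0.14, edgeR adjusted p = 0.87). Stat2 averaged 48.4 ± 2.85 CPM (SD, n = 3) for matBFMI and 49.0 ± 4.60 CPM for patBFMI. The antigen processing genes Tap1, a peptide transporter subunit, and Psmb8, an immunoproteasome subunit, had log2 fold changes of 0.02 (SE 0.137) and -0.01 (SE 0.104), with adjusted p of 0.982 and 0.986 in edgeR. Psmb9, another immunoproteasome subunit, had 0.23 (SE 0.159, edgeR adjusted p = 0.681).

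A single animal weighed on these differences. matBFMI 2 had the lowest CPM of the 6 F1 libraries for 21 of the 34 genes, and patBFMI 2 and patBFMI 3 had the highest for 12 each. Without matBFMI 2 the median of the type I antiviral genes was -0.10, and without matBFMI 1 it was -0.35. The GTPase median without matBFMI 2 was -0.25.

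**Figure D2:**
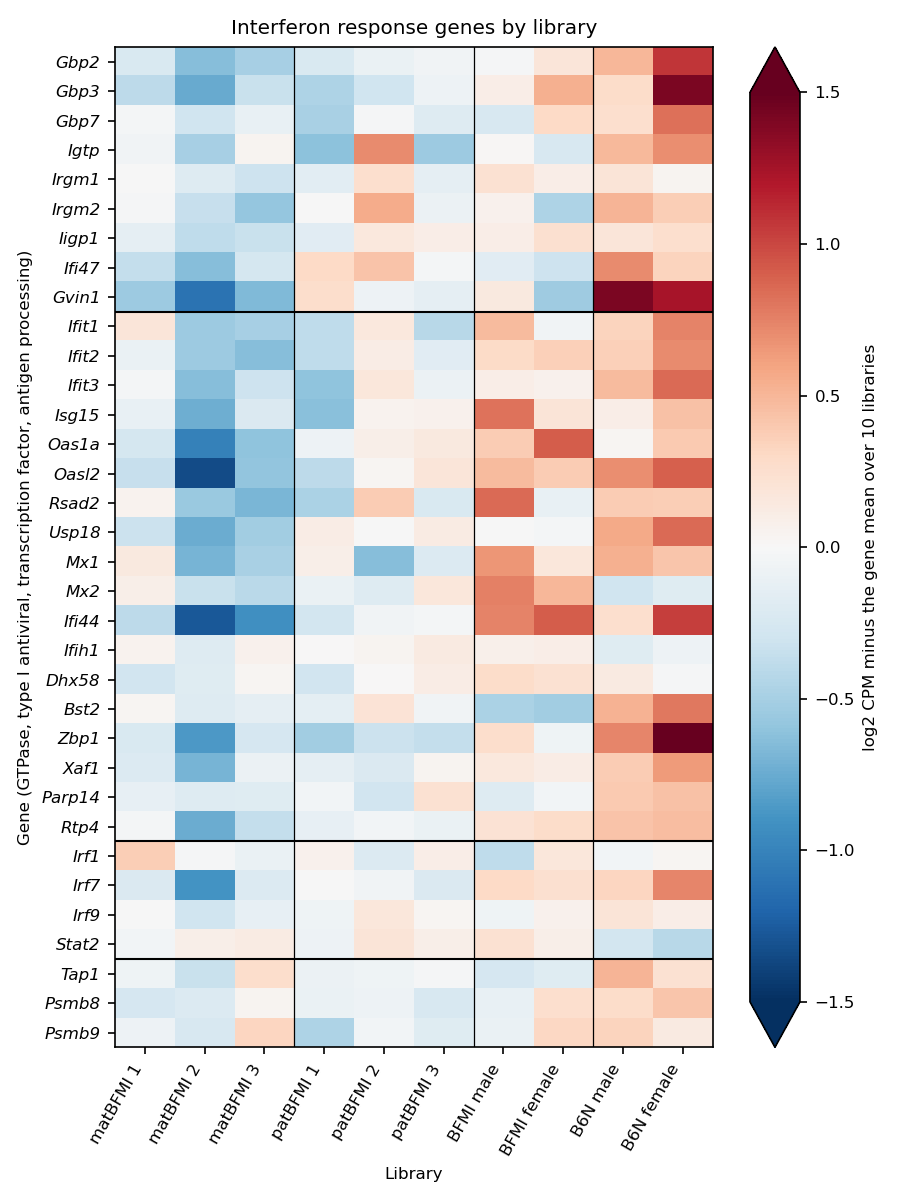
Level of each interferon response gene (rows, grouped as GTPase, type I antiviral, transcription factor and antigen processing genes) in each of the 10 libraries (columns), as log2 CPM minus the mean of that gene over the libraries, red above and blue below it. matBFMI 2 is the bluest column, with the lowest value of all libraries for 20 genes, and the B6N female is the reddest, with the highest value for 17.

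The inbred strains were compared to see which of these genes differ between the parental genomes. BFMI and B6N differed in 7 of the 34 genes, of which 5 were lower and 2 higher in BFMI. Over all 19974 genes tested, edgeR called 3.05% lower and 3.61% higher in BFMI. At an unadjusted p under 0.05, 12 of the 34 were lower and 2 higher, against 8.56% and 9.72% of all genes. Both BFMI libraries lay below both B6N libraries for 17 genes and above them for 4, where 23.0% and 20.8% of all genes did so. Each strain gave only 1 male and 1 female, the fit held a term for sex, and most of its spread came from the F1 males. Reads of both strains were aligned to GRCm38, where the paper treats the B6 allele as the reference. Whether reads of BFMI alleles were lost through mismatches, above all in genes with near copies, was not tested.

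Of the GTPase genes 3 of 9 fell in BFMI, and the median log2 fold change of BFMI over B6N was -0.64, against -0.04 over all genes. Gvin1 was at 28.8 and 18.1 CPM in the BFMI male and female and at 69.7 and 61.4 CPM in the B6N male and female. It was 2.86 times lower in BFMI, with a log2 fold change of -1.52 (SE 0.203, edgeR adjusted p = 0.00149). Gm4070 and 3 further near copies of Gvin1 were called in the same direction, and the summed mean was 60.4 CPM in BFMI and 157 CPM in B6N. Ifi47 was at 16.7 and 15.2 CPM in the BFMI male and female and at 30.9 and 23.9 CPM in B6N, with a log2 fold change of -0.77 (SE 0.168, edgeR adjusted p = 0.0222). Gbp2 was at 4.67 and 5.34 CPM in BFMI and at 6.64 and 9.94 CPM in B6N, with a log2 fold change of -0.70 (SE 0.17, edgeR adjusted p = 0.0354). Both sexes thus showed the lower BFMI level for all 3 of these genes. Igtp (-0.70) and Irgm2 (-0.64), the neighbours on chromosome 11 whose promoters are shown above, had similar values but larger errors (SE 0.385 and 0.231), and they share 162 bases of exon in the annotation. Iigp1 and Irgm1 had log2 fold changes of -0.05 (SE 0.153) and 0.05 (SE 0.155).

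The type I antiviral genes went both ways, with 2 called lower and 1 higher in BFMI. Their median was -0.21, and it was 0.03 without the BFMI female and 0.03 without the B6N female. Bst2 was at 30.8 and 29.8 CPM in the BFMI male and female and at 61.3 and 73.7 CPM in B6N. It was 2.22 times lower in BFMI (log2 fold change -1.15, SE 0.144, edgeR adjusted p = 0.000963), and the 6 F1 males stood between the strains at 37.3 to 49.1 CPM. Usp18 was at 4.84 and 4.78 CPM in BFMI and at 7.21 and 8.81 CPM in B6N, with a log2 fold change of -0.73 (SE 0.163, edgeR adjusted p = 0.0254). Mx2, a dynamin-like GTPase with antiviral action in the cytoplasm, ran the other way, at 8.10 and 6.78 CPM in BFMI and 3.88 and 4.21 CPM in B6N. Its log2 fold change was 0.88 (SE 0.201, edgeR adjusted p = 0.028), while its paralogue Mx1, 94.8% identical over 920 aligned bases, had -0.05. Zbp1, a sensor of Z-form nucleic acid, had a log2 fold change of -1.06 (SE 0.295) without passing the threshold (edgeR adjusted p = 0.0648), and its B6N female library held 4.82 CPM against 2.63 CPM in the male.

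Among the transcription factors, Stat2 rose in BFMI. It was at 54.6 and 49.3 CPM in the BFMI male and female and at 38.3 and 34.7 CPM in B6N, with a log2 fold change of 0.51 (SE 0.119, edgeR adjusted p = 0.0306). The 6 F1 males, at 44.1 to 53.3 CPM, all stood above both B6N animals. Irf7 had a log2 fold change of -0.25 (SE 0.213, edgeR adjusted p = 0.658), and Irf9 had -0.15 (SE 0.13, edgeR adjusted p = 0.671). Of the antigen processing genes, Tap1 had -0.59 (SE 0.175, edgeR adjusted p = 0.0835), Psmb8 -0.27 (SE 0.133, edgeR adjusted p = 0.32) and Psmb9 -0.13 (SE 0.216, edgeR adjusted p = 0.851). Tap1 and Psmb9 lie head to head, and 212 bases of exon overlap.

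The male and the female pair did not always show the same strain difference. Within sexes, the BFMI animal was lower than the B6N animal in both for 21 genes and higher in both for 6, and 7 genes went opposite ways. Ifit1, Isg15, Rsad2, Mx1 and Ifi44 were higher in the BFMI male than in the B6N male but lower in the BFMI female than in the B6N female. Only the female pair shared a lane. The calls of Gvin1 and Bst2 were kept when any 1 of the 4 inbred libraries was left out, and those of Gbp2, Ifi47, Usp18, Mx2 and Stat2 were not, the count falling from 7 to 2 or 3.

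**Figure D3:**
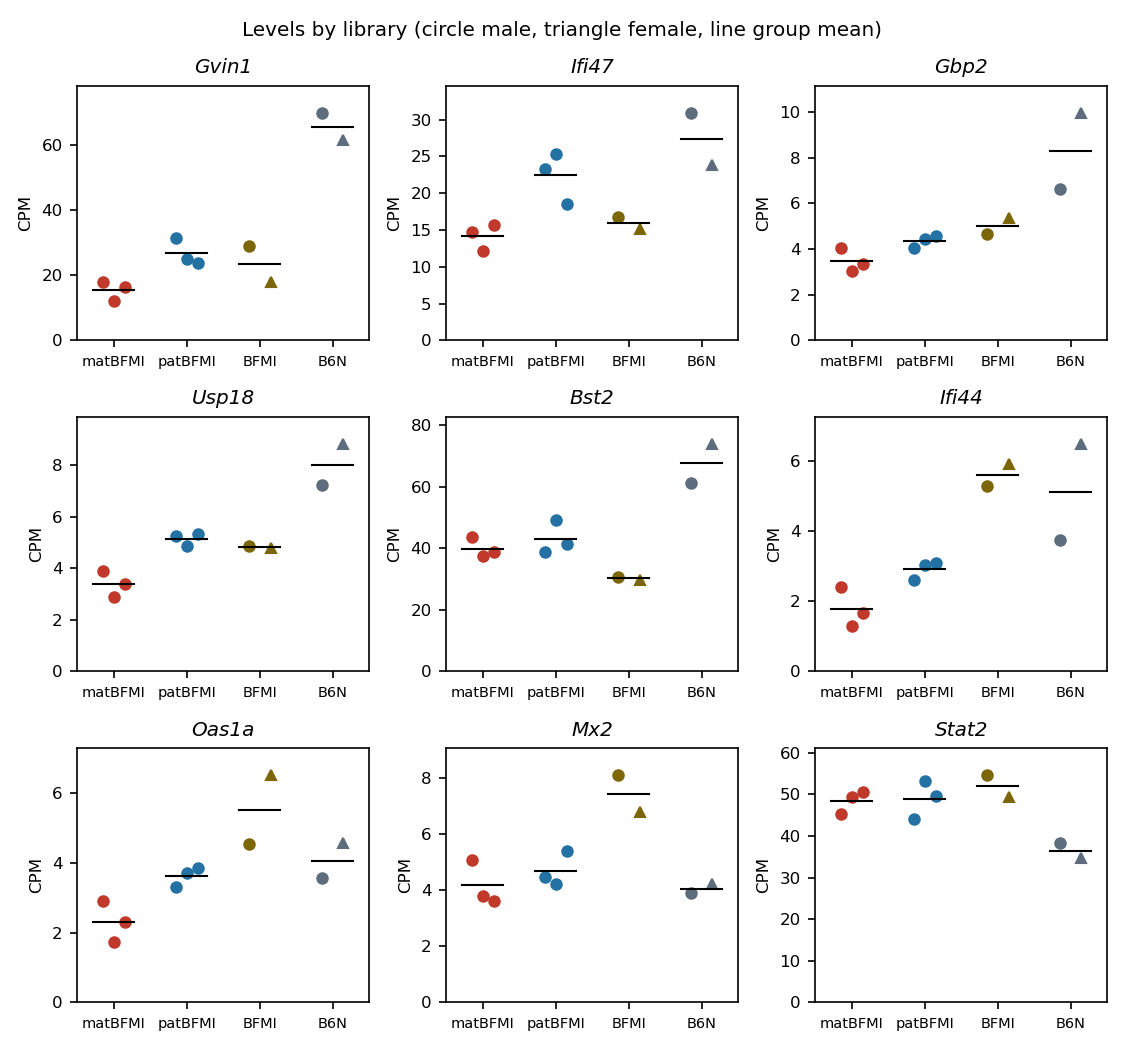
CPM of 9 genes in every library, with circles for males, triangles for females and a line at the group mean, each panel starting at 0. Gvin1, Ifi47, Gbp2, Usp18 and Bst2 are highest in B6N, Mx2 is highest in BFMI, Stat2 is lowest in B6N, and Ifi44 is lower in all 6 F1 males (1.30 to 3.08 CPM) than in the 4 inbred animals (3.75 to 6.49 CPM).

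The F1 males were compared with the mid-parent level, the mean of BFMI and B6N on the log scale, to place the hybrids relative to their parents. Most of the genes were low in the hybrids. The log2 fold change was negative for 31 of 34 genes, with a median of -0.41 against 0.01 over all genes tested. In edgeR 2 genes fell and 0 rose, where 0.916% and 1.14% of all genes did so. At an unadjusted p under 0.05, 20 genes were lower in the F1 males, against 7.61% of all genes. For 11 genes all 6 F1 males lay below all 4 inbred animals, against 2.71% of all genes.

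Gvin1, at 12.2 to 31.5 CPM in the F1 males, was below the mid-parent level by a log2 fold change of -1.14 (SE 0.154, edgeR adjusted p = 0.0106), although the BFMI libraries lay within the F1 range. Ifi44 was at 1.30 to 3.08 CPM in the F1 males, 5.30 and 5.92 CPM in BFMI and 3.75 and 6.49 CPM in B6N. All F1 males stood below all inbred animals, with a log2 fold change of -0.98 (SE 0.202, edgeR adjusted p = 0.0392). The type I antiviral genes had a median of -0.52, and for 8 of the 18 the 6 F1 males lay below every inbred animal. These 8 were Ifit2, Isg15, Oasl2, Mx1, Ifi44, Zbp1, Xaf1 and Rtp4. Among them, Mx1, Oasl2, Zbp1, Ifi44 and Xaf1 had a mean below 1 CPM per kb over all libraries. Apart from patBFMI 1, every F1 library also had fewer genes with any count than each inbred library. The part of this in the low F1 values was not tested. Oasl2 was at 0.886 to 2.56 CPM in the F1 males and at 2.93 to 4.19 CPM in the inbred animals, with a log2 fold change of -0.96 (SE 0.226, edgeR adjusted p = 0.0616). Zbp1 had -0.93 (SE 0.234, edgeR adjusted p = 0.0764), with -0.34 when the BFMI male and -1.505 when the B6N male was left out.

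The GTPase genes had a median of -0.34, and all 9 were negative. Gbp2 (-0.53, SE 0.136, edgeR adjusted p = 0.085) and Gbp3 (-0.58, SE 0.163, edgeR adjusted p = 0.111) were below all inbred animals in every F1 male. The value of Gbp3 was -0.25 without the BFMI male and -0.91 without the B6N male. Irf7 was as well, with -0.56 (SE 0.169, edgeR adjusted p = 0.132). Irf1 (0.25, SE 0.149, edgeR adjusted p = 0.418), Stat2 (0.09) and Ifih1 (0.07) were the 3 genes with a positive value. Irf9 had -0.11, Psmb8 -0.22, Psmb9 -0.22 and Tap1 -0.17, with adjusted p of 0.63, 0.334, 0.545 and 0.565 in edgeR.

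By group means, matBFMI stood below both inbred strains for 28 of 34 genes, including all 9 GTPase genes, and patBFMI for 21, including 5 GTPase genes. Over all genes tested, 34.9% in matBFMI and 32.9% in patBFMI were below both. The F1 males differed from the inbred animals in lane and possibly in diet, and neither can be told apart from being an F1 hybrid. The inbred groups held 1 female each, and sex entered the fit as a term. The comparison is sensitive to single libraries, and so is its count of genes at an unadjusted p under 0.05. With a library left out, the median log2 fold change was -0.53 to -0.28 for the GTPase genes and -0.69 to -0.36 for the type I antiviral genes. Without the BFMI male 0 of the genes were called, without matBFMI 1 the count was 6, and without the term for sex it was 12. Without the B6N male, or any 1 of matBFMI 2, matBFMI 3, patBFMI 2 and patBFMI 3, only Gvin1 was called.

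**Figure D4:**
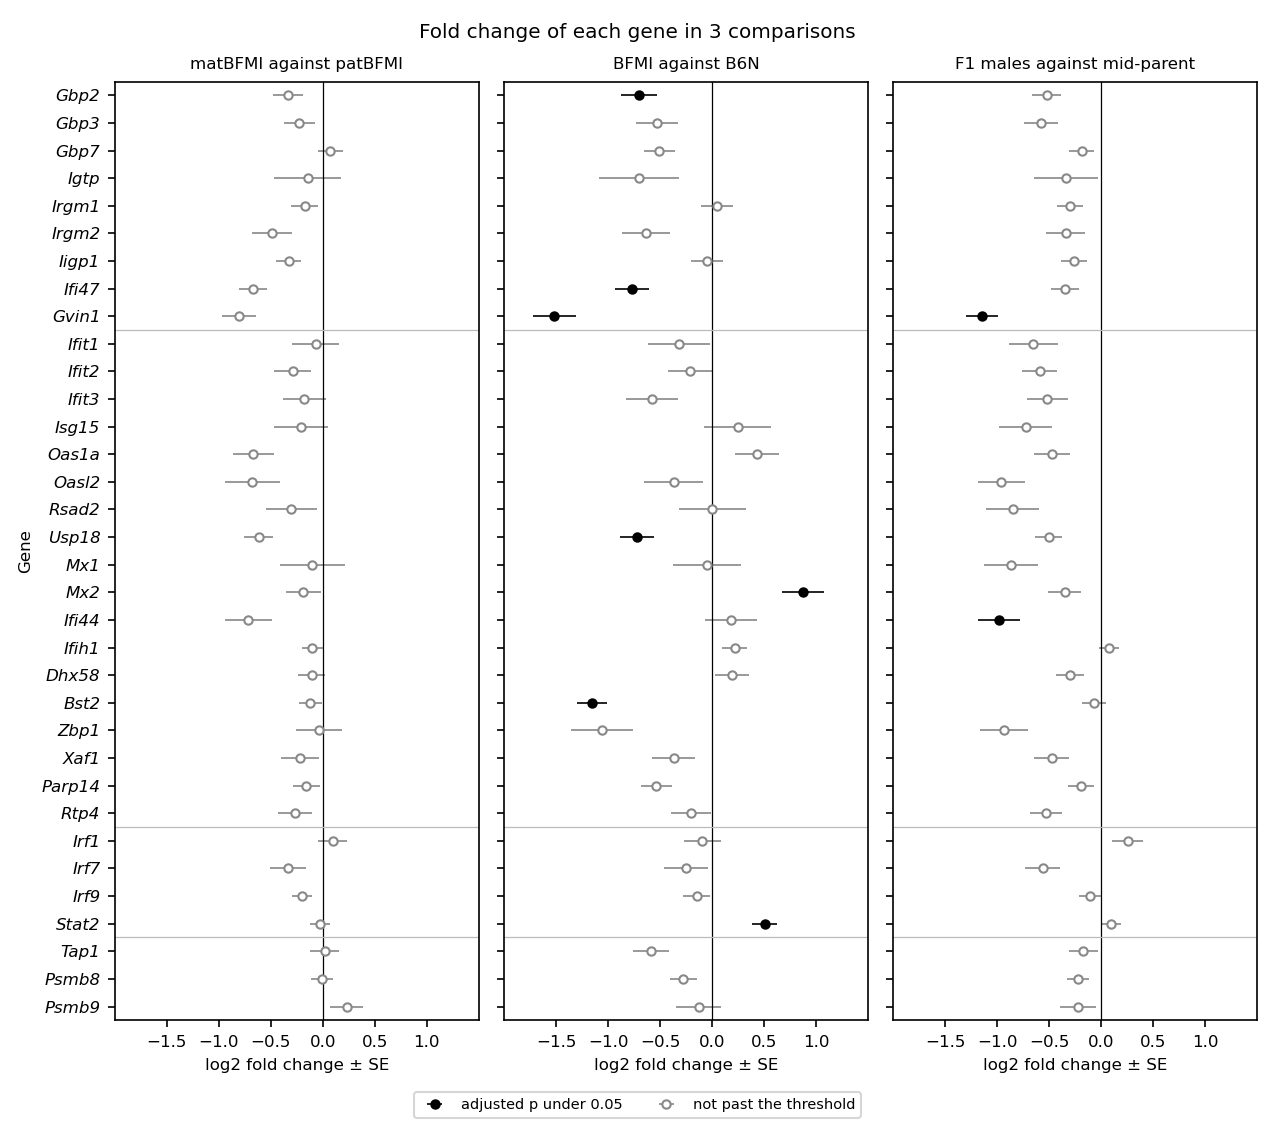
Log2 fold change of each interferon response gene in the 3 comparisons, with its standard error as a bar, filled points for an adjusted p under 0.05 in edgeR and open points for the others. No point is filled for matBFMI against patBFMI, 7 are filled for BFMI against B6N and 2 (Gvin1 and Ifi44) for the F1 males against the mid-parent level, where most points lie left of 0.

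The rest of the pathway was examined through 70 further genes, of which 68 were in the tables. Among the ligands, none of 6 interferon genes passed the filter, and the highest count in any library was 8 (Ifnl3). Of the receptor genes, Ifnar1, a chain of the type I receptor, averaged 44.4 ± 1.09 CPM (SD, n = 3) for matBFMI and 46.3 ± 1.49 CPM for patBFMI. Ifngr1, a chain of the gamma receptor, averaged 16.8 ± 0.377 and 18.7 ± 1.02 CPM. No receptor, kinase or inhibitor was called by edgeR in the 3 comparisons, and DESeq2 called Ifngr2 lower in the F1 males than the mid-parent level, as it did 1.96% of all genes. Between the F1 crosses 59 of the genes were tested, 0 were called by edgeR and 2 by DESeq2 (Irf5 and Tgtp1, both lower), and 12 were lower and 1 higher in matBFMI at an unadjusted p under 0.05, where 4.7% of all genes were lower.

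Between the strains 60 further genes were tested, and 4 fell and 2 rose in BFMI, against 3.05% and 3.61% of all genes. Irf5, a regulator of inflammatory cytokines, was at 6.04 and 5.18 CPM in the BFMI male and female and at 11.3 and 9.62 CPM in B6N (log2 fold change -0.90, SE 0.186, edgeR adjusted p = 0.0172). The IRG genes Tgtp1 (-1.04) and Tgtp2 (-0.93), near copies of each other, and Ifi35 (-0.66) were also called lower. Tgtp2 had -0.60 without the BFMI female and -0.605 without the B6N female. Of the guanylate-binding protein genes in this set, 2 of 4 were called higher in BFMI. Gbp11 was at 58.4 and 49.0 CPM in BFMI and 4.42 and 5.92 CPM in B6N (log2 fold change 3.38, SE 0.314, edgeR adjusted p = 0.000146), with the F1 males between them at 24.1 to 48.9 CPM. Gbp4 was higher in BFMI by a log2 fold change of 1.19 (SE 0.222, edgeR adjusted p = 0.01). Gbp8 (-0.42, edgeR adjusted p = 0.405) and Gbp9 (0.11, edgeR adjusted p = 0.798) did not pass the threshold. Gbp4, Gbp8 and Gbp9 overlap on the minus strand of chromosome 5 in the annotation, and sharing of reads among them was not examined.

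Below the mid-parent level, 3 of 60 further genes were called in the F1 males, against 0.916% of all genes. Ifi27l2a, an interferon-inducible gene of the Ifi27 family, was at 0.886 to 1.92 CPM in the F1 males and at 2.98 to 4.67 CPM in the inbred animals (log2 fold change -1.35, SE 0.217, edgeR adjusted p = 0.0177). Gbp9 (-0.73) and Trim30a (-0.70) were lower as well, and for all 3 genes every F1 male lay below every inbred animal.

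Liver identity was checked with 5 hepatocyte markers, among them Alb with at least 1944330 counts per library. In whole liver, fewer cells of a type and less RNA per cell cannot be told apart. Summed over 8 Kupffer cell and macrophage markers, the level was 175.9 to 200.2 CPM in matBFMI, 222 to 229 CPM in patBFMI, 208 to 271 CPM in BFMI and 351 to 373 CPM in B6N, with no marker at 0 in any group. All 8 had a negative log2 fold change in matBFMI against patBFMI, with 0 called by edgeR or DESeq2. At an unadjusted p under 0.05, 5 of the 8 were lower, against 4.7% of all genes. In BFMI 3 of the 8 were called lower than in B6N by edgeR (Adgre1, Vsig4 and Cd5l), against 3.05% of all genes. In the F1 males 3 fell against the mid-parent level (Cd5l, Csf1r and Marco), where 0.916% of all genes did so. Markers of T and NK cells summed to 1.20 to 1.41 CPM in matBFMI, 1.35 to 2.60 in patBFMI, 2.33 to 2.67 in BFMI and 2.61 to 5.61 in B6N. Of the 5 hepatocyte markers, Apoa1 (-0.27), Cps1 (-0.26) and Serpina1a (-0.28) were lower in every matBFMI than in every patBFMI library at an unadjusted p under 0.05. Over all genes, 7.07% were separate in that direction and 4.7% were lower at that level. For Alb (0.15) and Ttr (-0.006) the libraries of the crosses overlapped. Summed over the 5 markers, the ranges overlapped too, at 64100 to 71190 CPM in matBFMI and 58730 to 68300 CPM in patBFMI. Of the hepatocyte markers 0 were called by edgeR or DESeq2 there, and Cps1 rose in the F1 males against the mid-parent level (0.81, edgeR adjusted p = 0.0217). Of the 4 endothelial markers, Lyve1 was at 4.26 to 6.39 CPM in matBFMI and 6.91 to 9.28 CPM in patBFMI (log2 fold change -0.66, edgeR adjusted p = 0.235, called by DESeq2). Lyve1 also fell in BFMI against B6N (-1.13, edgeR adjusted p = 0.0286). Stab2, Clec4g and Pecam1 were not called, with log2 fold changes of 0.07, -0.10 and -0.08 between the crosses. Between the strains they had 0.08, -0.33 and 0.11. Markers of B cells were at 1.04 to 2.48 CPM, of dendritic cells at 1.17 to 3.72 CPM and of endothelial cells at 149 to 182 CPM over all libraries. Neutrophil markers were at 2.68 to 5.57 CPM in BFMI and 0.534 to 1.18 CPM in the other 3 groups. The summed Kupffer cell level was thus lower in matBFMI than in patBFMI and lower in BFMI than in B6N, as were most interferon response genes by the sign of their fold change, and the part of these markers in the result was not tested.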

How the data were processed

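Liver RNA libraries of 10 mice in 4 groups were grouped by the titles and strain fields of their records. After trimming, alignment to GRCm38 and removal of duplicate reads, the authors assigned reads to Ensembl genes (union mode) and deposited the raw counts. The second deposited table holds RPKM, which the authors computed after quantile normalization between samples. The methods name BWA, while TopHat2 2.10 and Bowtie2 2.2.6 stand in the submitters' processing notes beside Picard 1.99 and Trimmomatic 0.32. The protocol names ribosomal RNA removal and the molecule field reads polyA RNA. The counting strand is not given in the sources used here. There were 3 columns with no sample record in each table, and they were not used.

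Symbols, positions and exon lengths came from GENCODE M21 (40340 of 41388 identifiers matched). Counts were scaled by TMM and tested with the quasi-likelihood test of edgeR 4.0.16 (R 4.3.3), with Benjamini-Hochberg adjustment over all genes tested. The F1 fit used the 6 F1 males and kept a gene when 3 or more libraries had 10 or more counts. BFMI against B6N and the F1 males against the mid-parent level came from 1 fit of all 10 libraries with a term for sex, where 2 such libraries were enough. The biological coefficient of variation was 15.9% and 17.7%. p-values measure the spread between single animals. The members and lists were chosen with earlier results of these data known. Fold changes are given singly for members past the threshold and, per list and comparison, for the 3 with the smallest p, and for up to 10 further pathway genes past the threshold. Other genes named, and the promoters shown, were chosen after their values were seen. Results for some genes of the pathway list are not given. Near copies were sought with BLAST 2.17.0. Alternatives were DESeq2 1.42.0, other scalings and filters, limma 3.58.1 on deposited RPKM, a replicate block, other sets of libraries and leaving out each library. Python 3.11.15 with pandas 2.3.3 and matplotlib 3.10.9 was used for summaries and plots.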

Additional observations from a re-analysis of the deposited data

Results flagged for a closer look

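Psmb9 had a strain difference of opposite sign in the 2 sexes. Its log2 ratio of BFMI over B6N was -0.43 in males and 0.18 in females, with 1 animal on each side. This was not particular to Psmb9. Irf1 had -0.33 in males and 0.15 in females. For 5 genes the ratio was positive in males and negative in females, among them Isg15 (0.71 and -0.25). The difference between the sexes was not tested.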

How the results depend on the processing

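In matBFMI against patBFMI the count of genes called was 3 with DESeq2 (305 of all genes, against 24 in the reported fit), 6 without the filter on low counts (696 of all genes) and 0 with every library left out in turn. With the offspring number as a replicate block it was 1 (Gvin1), with 175 of all genes. Deviations of animals with the same number had correlations of 0.30, -0.06 and 0.10, and those with different numbers -0.304 to 0.234. These values do not settle whether the numbers pair the animals. In BFMI against B6N, with 1332 of all genes called, the count was 11 with DESeq2 (1671 of all genes), 1 and 2 with RPKM (pseudocounts 0.1 and 1, with 320 and 364 of all genes), and 2 to 10 with a library left out. In the F1 males against the mid-parent level with 410 of all genes called, it was 7 with DESeq2 (871 of all genes), 13 without the filter (1410), 12 without the term for sex (958), 0 and 1 with RPKM (pseudocounts 0.1 and 1, with 42 and 264), and 0 to 6 with a library left out. The GTPase median in BFMI against B6N was -0.45 with RPKM (pseudocount 1) and -0.835 to -0.466 with a library left out. The type I antiviral median there ran from -0.42 to 0.03, turning positive (0.03) without either the BFMI or the B6N female. Against the mid-parent level the GTPase median was -0.57 and -0.53 with RPKM (pseudocounts 0.1 and 1) and -0.53 to -0.28 with a library left out, and the type I median was -1.19 and -0.73. Signs turned for genes near 0. In matBFMI against patBFMI, Irf1 was at -0.058 to 0.187 with a library left out, Tap1 at -0.043 and -0.031 with RPKM (pseudocounts 0.1 and 1), -0.00013 with the replicate block and -0.15 to 0.148 with a library left out, and Psmb8 at 0.003 (10 libraries in 1 fit), 0.075 (library size only), 0.024 (no filter) and -0.101 to 0.048 with a library left out. In BFMI against B6N, Psmb9 was at -0.431 to 0.206. Against the mid-parent level, Irf1 was at -0.01 to 0.495, Irf9 at -0.25 to 0.002, Tap1 at -0.378 to 0.008 and Psmb9 at -0.549 to 0.084 with a library left out. The cause of these changes was not tested. Each strain gave 1 animal per sex and each cross 3 males, and Gvin1, Oas1a and Ifit3 have near copies with which reads could be shared.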

Other observations

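The deposited RPKM and the TMM-scaled counts ranked the F1 libraries differently for these genes. In RPKM, patBFMI 1 was the highest of the 6 F1 males for 19 of 34 genes, and in CPM for 2. For the 5 genes with a mean below 1 CPM per kb (Mx1, Oasl2, Zbp1, Ifi44 and Xaf1), it was the highest for all 5 in RPKM and for 0 in CPM. The median ratio of RPKM to CPM per kb over those 5 genes was 2.68 in patBFMI 1, 1.64 to 2.34 in the inbred libraries and 0.657 to 1.41 in the other 5 F1 libraries. Over the other 29 genes it was 1.45 in patBFMI 1, 1.23 to 1.36 in the inbred libraries and 0.908 to 1.07 in the other F1 libraries. patBFMI 1 and the inbred libraries were also those with the most genes that had a count. Mx1 was at 0.762 RPKM in patBFMI 1 and 0.107 and 0.170 RPKM in patBFMI 2 and patBFMI 3, against 0.984, 0.598 and 0.809 CPM.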
